A study of Schizosaccharomyces pombe with 4 samples.

Results

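The hexose transporter family of the fission yeast Schizosaccharomyces pombe was described across 4 genotypes. Its members were the 8 genes named ght1 to ght8 in the deposited expression table, chosen by name alone, out of 5129 gene models. Total RNA had been sequenced from knockouts of sfp1, ifh1 and fhl1 and from wild type. All cultures were untreated and in exponential growth, with 1 sample per genotype, so that no difference below has a replicate check and none was tested. Each gene had 1 FPKM value per genotype (fragments per kilobase of gene model, scaled for depth) with a lower and an upper bound of unstated confidence level. Alleles, markers, medium and number of clones were not given in the labels used here.

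Ght proteins are sugar carriers of the plasma membrane that belong to the major facilitator superfamily, and they bring glucose and related sugars into the cell. Ght5 is the high-affinity glucose transporter that fission yeast needs for growth at low glucose, Ght1 and Ght2 also carry glucose, Ght6 prefers fructose, and Ght3 carries gluconate, while Ght4, Ght7 and Ght8 are placed in the family by similarity. Sfp1, Ifh1 and Fhl1 are regulators of ribosome production genes, and Sfp1 acts downstream of the TORC1 kinase complex, which responds to nutrients.

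The 8 genes each had a single coding exon of 1557 to 1674 bases, and their boundaries in the table were those of RefSeq assembly ASM294v3 for all 8. The genes ght6, ght5, ght8 and ght1 lay together on chromosome III, starting at 204733, 212313, 226757 and 232834. The gene ght2 lay inside chromosome II (3427572 to 3429167), and ght4 (II, 157555 to 159228) was 157.6 kb from its end. The 2 members nearest to a chromosome end of the assembly were ght7 (II, 38587 to 40143), at 38.6 kb, and ght3 (I, 82936 to 84603), at 82.9 kb.

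The coding sequences formed 2 pairs of close copies, and how the authors' counting shared reads between copies was not given in the labels. The genes ght5 and ght8 were identical at 92.1% of aligned coding bases and ght3 and ght4 at 81.9%, against 59.6 to 76.8% for the other pairs. The longest stretch without a difference was 248 bases between ght5 and ght8 and 240 bases between ght3 and ght4. Of all 50-base words in the coding sequence, 37.4% in ght5 and 38.2% in ght8 occurred more than once in the genome. This share was 13.1% in ght3, 13.0% in ght4, 9.48% in ght1, 2.50% in ght6 and 0% in ght2 and ght7. The window of 60 bases most alike in all 8 genes is shown to make the copies visible, 5′ to 3′ along each gene, with capitals where a base differs from ght8. The sequences are from RefSeq (ASM294v3), and the ght8 window lies at III:227180-227239 on the minus strand.
ght8: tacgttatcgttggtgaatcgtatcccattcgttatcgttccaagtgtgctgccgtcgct
ght5: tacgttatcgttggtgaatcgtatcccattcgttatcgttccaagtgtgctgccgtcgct
ght6: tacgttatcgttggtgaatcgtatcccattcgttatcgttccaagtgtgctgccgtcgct
ght1: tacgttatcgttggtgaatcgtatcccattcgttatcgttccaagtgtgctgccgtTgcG
ght2: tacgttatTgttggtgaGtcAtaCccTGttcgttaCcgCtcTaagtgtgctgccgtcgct
ght7: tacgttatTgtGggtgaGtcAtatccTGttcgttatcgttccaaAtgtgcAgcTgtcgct
ght4: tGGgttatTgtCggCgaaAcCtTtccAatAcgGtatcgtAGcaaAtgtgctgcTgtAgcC
ght3: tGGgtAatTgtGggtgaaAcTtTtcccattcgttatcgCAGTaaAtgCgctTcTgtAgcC

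In that window ght5 and ght6 matched ght8 at every base, ght1 differed at 2 bases, ght2 and ght7 at 9 each, ght4 at 17 and ght3 at 18. Reads wholly inside it could not have been assigned to 1 of ght5, ght6 and ght8 by sequence. The pairs can be told apart elsewhere, and the 60 bases that differ most within each pair are given for that reason, with capitals where the first gene differs from the second. For ght5 they lie near the end of the coding sequence (III:213879-213938, plus strand), and for ght3 right after the start codon (I:82939-82998, plus strand).
ght5: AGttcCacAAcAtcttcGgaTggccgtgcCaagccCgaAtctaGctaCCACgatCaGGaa
ght8: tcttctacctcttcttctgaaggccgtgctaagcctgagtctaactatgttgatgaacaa
ght3: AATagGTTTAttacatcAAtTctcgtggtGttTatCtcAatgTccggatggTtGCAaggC
ght4: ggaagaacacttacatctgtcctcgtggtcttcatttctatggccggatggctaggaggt

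These windows held 19 differences between ght5 and ght8 and 21 between ght3 and ght4. A second source of uncertainty is strand. RefSeq places non-coding RNA genes on the opposite strand over part or all of the coding sequence of 7 members, from 2.57% of ght1 to 100% of ght6, and over none of ght5. The libraries were directional, but whether strand was used in counting is not given.

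**Figure D1:**
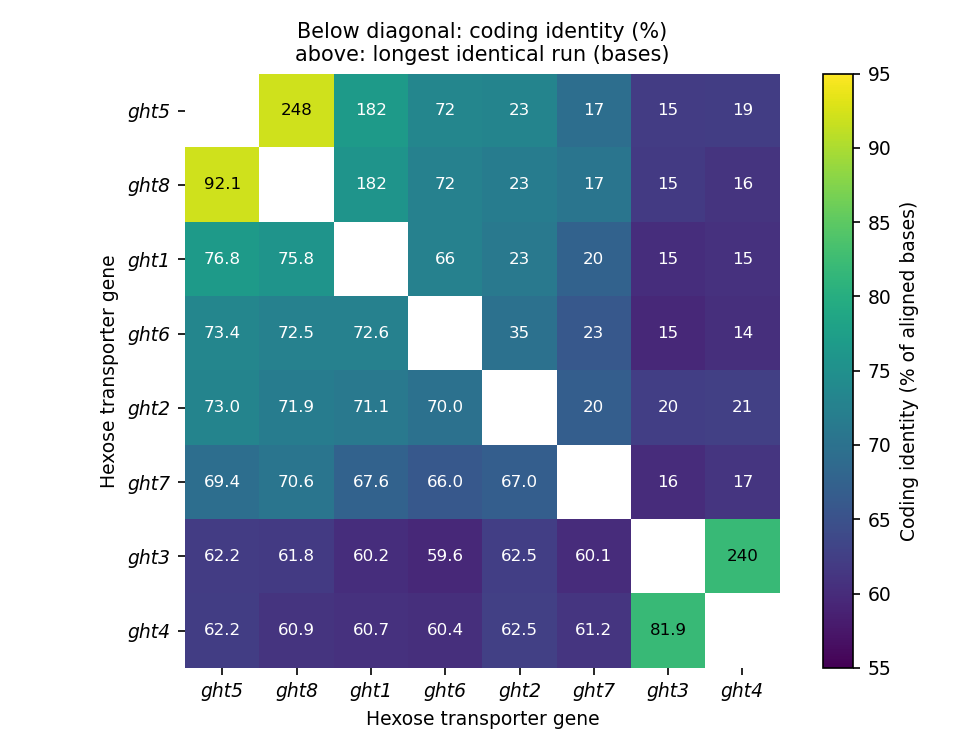
Pairwise comparison of the 8 ght coding sequences, with the percent of identical aligned bases below the diagonal (colour scale) and the longest identical run in bases above it. The pairs ght5 with ght8 (92.1%, 248 bases) and ght3 with ght4 (81.9%, 240 bases) stand out, and ght1 shares a run of 182 bases with both ght5 and ght8.

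FPKM is per length, so levels can be set side by side between genes. The most abundant member in every genotype was ght8, with 561 FPKM without sfp1, 521 without ifh1, 635 without fhl1 and 621 in wild type. It stood above 92.3 to 93.0% of all gene models, and its highest value was 1.22 times its lowest, with overlapping bounds. The glucose transporter gene ght5 had 199 FPKM without sfp1, 98.3 without ifh1, 292 without fhl1 and 223 in wild type. The low value was that of the ifh1 knockout, whose bounds (65.6 to 126) lay below those of the other 3 genotypes.

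The third abundant member, ght2, had 131 FPKM without sfp1, 191 without ifh1, 169.7 without fhl1 and 134 in wild type. Its values were higher in the ifh1 and fhl1 knockouts than in the other 2 genotypes, with overlapping bounds throughout. The fructose transporter gene ght6 had 23.0 FPKM without sfp1, 31.0 without ifh1, 30.7 without fhl1 and 39.7 in wild type. All 3 knockouts were thus below wild type in ght6, and the bounds overlapped.

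The remaining 4 members were rare transcripts. The gene ght1 had 7.78, 6.78 and 7.55 FPKM in the knockouts of sfp1, ifh1 and fhl1 and 8.69 FPKM in wild type, the narrowest spread among the rare members (1.28-fold). The gene ght4 had 14.7 FPKM without sfp1, 5.79 without ifh1, 8.05 without fhl1 and 6.15 in wild type. Here the sfp1 knockout stood highest, and its lower bound of 8.80 FPKM was just under the upper bound of 8.94 FPKM in wild type. The gluconate transporter gene ght3 had 9.15 FPKM without sfp1, 4.90 without ifh1, 4.71 without fhl1 and 0.867 in wild type. All 3 knockouts were above wild type in ght3, and their lower bounds (5.27, 2.42 and 2.28 FPKM) lay above the wild-type upper bound of 1.57 FPKM.

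The gene ght7 was close to unread. It was listed at 0.135, 0.181 and 0.311 FPKM in the knockouts of sfp1, ifh1 and fhl1 and at 0 in wild type, and it is left out of all ratios. The bounds of the table are whole multiples of a step for 99.45% of 24521 bounds under 500 fragments (within 0.05 of a whole number). This step is common to all columns, so fragments on this scale are normalized units and need not be raw counts. On that scale the midpoints for ght7 were 1.5, 1.5 and 2.5 fragments in the knockouts, with upper bounds of 3, 3 and 5, and 0 in wild type. By the same reading ght3 rested on 64, 34 and 33 fragments in the knockouts of sfp1, ifh1 and fhl1 and on 6 in wild type. For ght4 these were 103, 41 and 57 fragments in the knockouts and 43 in wild type, and for ght8 at least 3574.5 in each genotype.

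**Figure D2:**
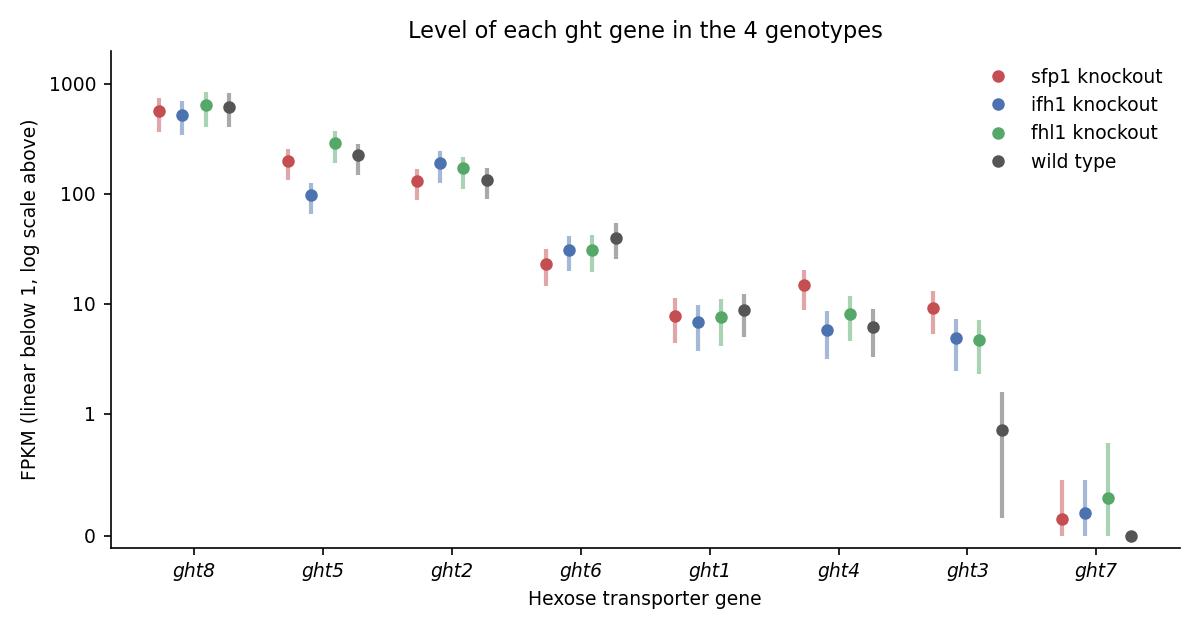
FPKM of each ght gene (vertical axis, linear below 1 and logarithmic above) in the knockouts of sfp1, ifh1 and fhl1 and in wild type, with 1 point per sample and vertical lines for the deposited bounds. The ifh1 knockout stands low in ght5 (98.3 FPKM), and wild type stands low in ght3 (0.867 FPKM).

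The order of levels was ght8, ght5, ght2, ght6, ght1, ght4, ght3, ght7 in wild type. Neighbours whose bounds overlapped, and which are therefore not apart in this order, were ght5 with ght2 and ght1 with ght4. In the ifh1 knockout ght2 and ght5 changed places, with ght2 1.94 times ght5 and bounds that overlapped. In the sfp1 knockout ght4 and ght3 stood above ght1, and the bounds of ght6, ght4, ght3 and ght1 overlapped from each to the next. In the fhl1 knockout ght4 stood above ght1, again with overlapping bounds.

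Summed over the 8 genes, the family had 946 FPKM without sfp1, 859 without ifh1, 1148 without fhl1 and 1034 in wild type. These sums were 91.5, 83.0 and 111.1% of wild type in the knockouts of sfp1, ifh1 and fhl1. With columns scaled on the FPKM sum of genes other than those of ribosomal proteins, which puts the median log2 ratio of all genes at 0.19, 0.28 and 0.15, the family sums stood at log2 ratios of 0.080, 0.034 and 0.29. Relative to that median they were −0.11, −0.25 and 0.13. The genes ght8, ght5 and ght2 made up 94.2, 94.3 and 95.5% of the sum in the knockouts of sfp1, ifh1 and fhl1 and 94.6% in wild type. The share of ght5 was 21.1, 11.5 and 25.4% in the knockouts of sfp1, ifh1 and fhl1 and 21.6% in wild type. The share of ght2 was 13.9, 22.2 and 14.8% in the knockouts, in the same order, and 13.0% in wild type. The 2 largest departures from the wild-type make-up were thus both in the ifh1 knockout, less ght5 and more ght2, while ght8 kept 55.3 to 60.7% in all 4 genotypes.

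**Figure D3:**
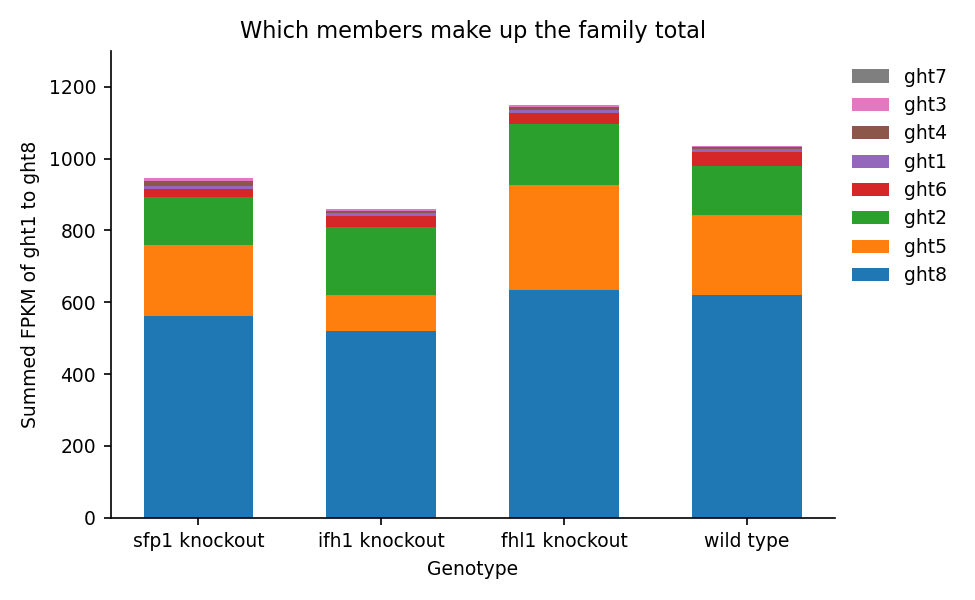
Summed FPKM of ght1 to ght8 in each genotype (bars, from 0), divided by member. Wild type stands at 1034 FPKM and the ifh1 knockout at 859 FPKM, with a thinner ght5 layer and a thicker ght2 layer than the other 3 genotypes.

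The comparison of the sfp1 knockout with wild type asked which transporter genes have another level without sfp1. The 2 members past a 2-fold limit were ght3 and ght4, the pair of close copies, both higher in the knockout, and no member was 2-fold lower. Differences were computed as log2 ratios of FPKM + 1 among 4758 genes whose mean reached 1 FPKM, a minimum that 7 of the 8 members passed. Of all these genes, 3.11% stood 2-fold or more above wild type and 2.48% stood 2-fold or more below it. The log2 ratio was 2.44 for ght3 and 1.13 for ght4. Since 1 was added to each value, that of ght3 understates the plain FPKM ratio of 10.6, whose denominator is the value resting on 6 fragments. The bounds lay apart for ght3 and overlapped for ght4, and 1.03% of all genes were 2-fold higher with bounds apart. The fructose transporter gene ght6 had the lowest log2 ratio, −0.76, inside the limit and with overlapping bounds. The other 4 members lay between −0.16 (ght5) and −0.03 (ght2), and all 4 stood above 0, at up to 0.17, when columns were scaled on genes other than those of ribosomal proteins. Relative to the median of all genes under that scaling, they lay between −0.15 and −0.02. The median over the 7 members was −0.14, beside −0.01 for all genes tested. The call for ght4 ended with quantile normalization (0.85) and with a pseudocount of 5 (0.82).

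In the ifh1 knockout 2 members were past the limit, 1 lower and 1 higher. The lower one was ght5, the high-affinity glucose transporter gene, with bounds apart. Its log2 ratio was −1.17, a 2.25-fold lower value of FPKM + 1. Of all genes tested, 2.82% were 2-fold lower, and 1.24% were so with bounds apart. The gene ght3 was 2-fold higher here as well, with a log2 ratio of 1.66 and bounds apart. Of all genes tested, 1.6% were 2-fold higher, and 0.315% were so with bounds apart. The gene ght2 had the next highest value, 0.50. Values of ght8 (−0.25), ght1 (−0.32), ght6 (−0.35) and ght4 (−0.07) were inside the limit. The median over the 7 members was −0.25, beside −0.01 for all genes tested. When columns were scaled on genes other than those of ribosomal proteins, the value of ght5 was −0.87, inside the limit, and those of ght8 and ght4 were 0.048 and 0.18. Relative to the median of all genes under that scaling, ght5 stood at −1.15, ght8 at −0.23 and ght4 at −0.10.

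In the fhl1 knockout ght3 was the 1 member past the limit, with a log2 ratio of 1.61 and bounds apart. Of all genes tested, 2.59% were 2-fold higher, 0.441% were so with bounds apart, and 0.883% were 2-fold lower. The glucose transporter genes ght5 and ght2 stood at 0.39 and 0.33, ght4 at 0.34 and ght8 at 0.03. The genes ght6 and ght1 stood at −0.36 and −0.18. The median over the 7 members was 0.33, beside 0.02 for all genes tested. The 3 comparisons share the same wild-type sample, and so the 3 values of ght3 share its 6 wild-type fragments. With a pseudocount of 5, the ght3 value was 1.27 in the sfp1 knockout and fell inside the limit in the ifh1 (0.75) and fhl1 (0.73) knockouts.

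**Figure D4:**
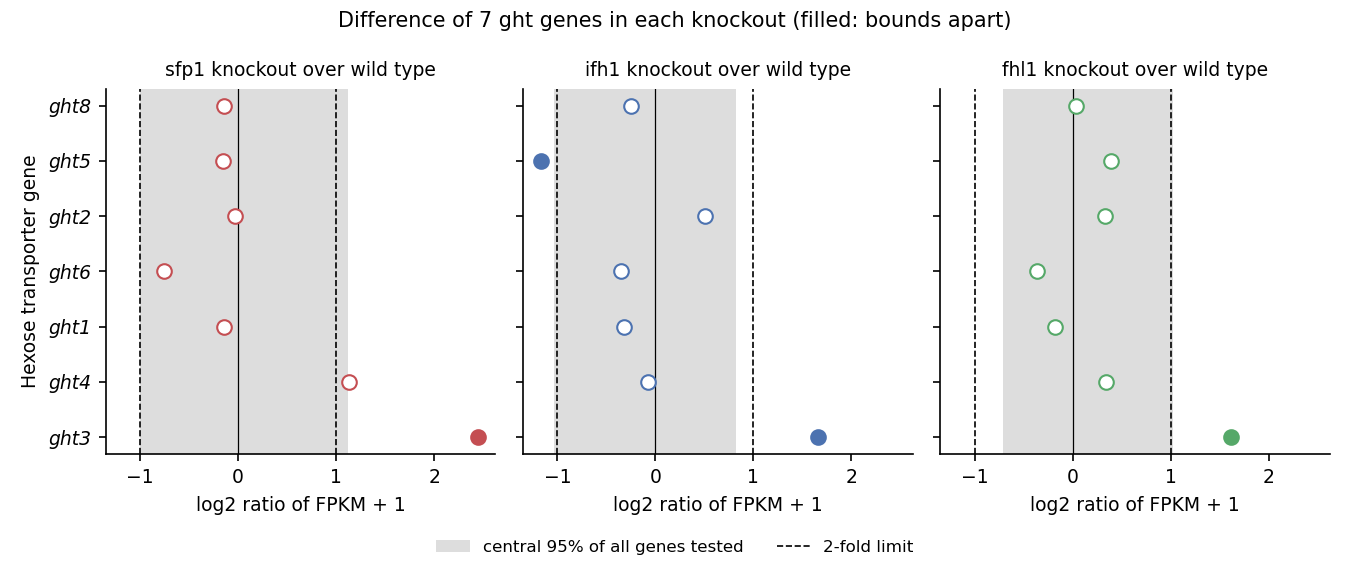
Log2 ratio of FPKM + 1 (horizontal axis) of 7 ght genes in the knockouts of sfp1, ifh1 and fhl1 over wild type, with filled points where the deposited bounds lie apart and grey bands for the central range of all genes tested. The gene ght3 lies right of the 2-fold limit (dashed) in all 3 panels, which share the wild-type sample, and ght5 lies left of it in the ifh1 knockout, at −1.17.

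Direct ratios between knockouts do not use the wild-type sample. Of the 7 members, 2 were past the limit between the sfp1 and ifh1 knockouts, both higher in the sfp1 knockout. These were ght4 (14.7 FPKM in the sfp1 and 5.79 in the ifh1 knockout, log2 ratio 1.21) and ght5 (199 and 98.3 FPKM, 1.01), both with bounds apart. Of all genes, 2.44% were 2-fold higher in the sfp1 knockout, and 1.18% were so with bounds apart. This ght5 value lies at the limit and fell inside it with size factors by the median of ratios (0.998), with columns scaled on genes other than those of ribosomal proteins (0.92) and with a pseudocount of 5 (0.98), which also put ght4 inside it (0.87). Between the ifh1 and fhl1 knockouts ght5 was past the limit at −1.56 (98.3 and 292 FPKM), with bounds apart. Of all genes, 1.37% were 2-fold lower in the ifh1 knockout, and 0.273% were so with bounds apart. Between the sfp1 and fhl1 knockouts no member was past the limit, where 1.18% of all genes were 2-fold higher in the sfp1 knockout and 1.89% were 2-fold lower. The gene ght3 stood at 0.78 and 0.83 in the sfp1 knockout over the ifh1 and fhl1 knockouts, with overlapping bounds, and at 0.05 in the ifh1 over the fhl1 knockout.

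Because of the long identical stretches, each pair of close copies was also summed. The sum of ght3 and ght4 was 23.8 FPKM without sfp1, 10.7 without ifh1, 12.8 without fhl1 and 7.01 in wild type. The log2 ratios to wild type were 1.63, 0.54 and 0.78, so that the pair was past the 2-fold limit in the sfp1 knockout and inside it in the other 2. In wild type ght4 made up 6.15 of the 7.01 FPKM. With ght4 at that level, the ght3 values of 4.90 and 4.71 FPKM in the ifh1 and fhl1 knockouts could not bring the sum to 2-fold. The sum therefore does not bear on the ght3 calls in those 2 knockouts. The sum of ght5 and ght8 was 760.3 FPKM without sfp1, 619 without ifh1, 927 without fhl1 and 844 in wild type. Its log2 ratio to wild type was −0.45 in the ifh1 knockout. With ght5 at 0 and ght8 at its wild-type level this ratio would be −0.44, so the sum cannot show a 2-fold difference in ght5 and does not bear on that call. Whether reads were assigned differently between ght5 and ght8 was not tested. The level of ght8 itself was 521 FPKM in the ifh1 knockout and 621 in wild type.

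Genes around the glucose pathway were read from 6 lists, matched by gene name (59 of 62 names), as background to the transporters. The names scr2, wat1 and aly3 had no match, so those genes are not covered. The list of other sugars and related carriers held most of the genes past the limit. In the sfp1 knockout 5 of its 10 genes were at least 2-fold higher and none lower, beside 3.11% and 2.48% of all genes tested, with a median log2 ratio of 0.92 beside −0.01. The melibiase gene mel1 had 11.5 FPKM without sfp1 against 1.02 in wild type (2.63). The galactose pathway genes gal10, gal7 and gal1 had 9.68, 31.2 and 2.16 FPKM without sfp1 against 2.01, 9.53 and 0.515 in wild type (1.83, 1.61 and 1.06). Their systematic names (SPBPB2B2.12c, SPBPB2B2.10c and SPBPB2B2.13) run close together, so their calls may not be separate observations. The sucrose and maltose transporter gene sut1 had 21.0 FPKM without sfp1 against 5.43 in wild type (1.77). Bounds lay apart for these genes in the sfp1 knockout other than gal1. In wild type gal1 rested on 3.5 fragments and mel1 on 5.5. In the ifh1 knockout 1 of the 10 genes, mel1 (1.52), was past the limit, beside 1.6% of all genes 2-fold higher, with a list median of 0.49 beside −0.01. In the fhl1 knockout mel1 (1.33) and sut1 (1.17) were past it, both with overlapping bounds. There 2.59% of all genes were 2-fold higher, and the list median was 0.63 beside 0.02. The most abundant gene of this list was the phosphate transporter gene pho84, at 1069, 1468 and 951 FPKM in the knockouts of sfp1, ifh1 and fhl1 and 1235 in wild type.

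The list of hexose and gluconate entry holds enzymes at several steps after uptake, with trehalose synthesis and the pentose phosphate pathway among them. Of its 9 measured genes, 8 had log2 ratios below 0 in the ifh1 knockout. The list median there was −0.61 beside −0.01 for all genes tested. The glucose 6-phosphate isomerase gene pgi1 was the 1 gene of the list past the limit. It had 688 FPKM in the ifh1 knockout against 1465 in wild type (−1.09). Of all genes tested, 2.82% were 2-fold lower in this knockout. The most abundant gene of the list, gnd1 of the pentose phosphate pathway, had 1434 FPKM in the ifh1 knockout against 2589 in wild type (−0.85). The bounds of both genes overlapped. Scaling columns on genes other than those of ribosomal proteins raised ght5 from −1.17 to −0.87 in this knockout. By that scaling pgi1, nearer the limit, falls inside it too. The same scaling puts the median log2 ratio of all genes at 0.28 in this knockout, and relative to that median ght5 stood at −1.15. The list medians were −0.02 and −0.31 in the sfp1 and fhl1 knockouts, with no gene past the limit. The gluconokinase gene idn1, which acts after gluconate uptake, was listed at 0 in all 4 genotypes and could not be set beside ght3.

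Among genes that sense glucose or control the carriers, 1 passed the limit. Of 10 genes of cAMP and protein kinase A signalling, only git11 was past the limit, beside 2.82% of all genes 2-fold lower in the ifh1 knockout. It had 42.2 FPKM there against 114 in wild type (−1.41). That value is weak, since this gene model has 219 bases and both FPKM values lay above their own bounds, which were 0 to 11.9 FPKM in the knockout and 1.08 to 17.3 in wild type. Medians of this list were 0.28, 0.15 and 0.35 in the knockouts of sfp1, ifh1 and fhl1. None of 9 genes of glucose repression and the AMP-activated kinase was past the limit. The most abundant of these, cbs2, a gene of the kinase complex, had 211, 183 and 201 FPKM in the knockouts of sfp1, ifh1 and fhl1 and 199 in wild type. None of 9 genes of the TORC2 and Gad8 kinases and of transporter traffic was past it either, with the arrestin gene any1 at 145, 185 and 160.1 FPKM in the knockouts and 211 in wild type. In this list any2 was listed at 0 in all 4 genotypes, and wat1 and aly3 were not matched by name. A further list of 10 carbon genes was drawn up as repressed by glucose, which was not tested here for any of them. Of these, the dihydroxyacetone kinase gene dak2 was past the limit, beside 3.11% of all genes 2-fold higher in the sfp1 knockout. It had 8.38 FPKM without sfp1 against 2.71 in wild type (1.34, bounds apart). The most abundant of that list, the malic enzyme gene mae2, had 1135 FPKM in the sfp1 knockout and 734 in wild type (0.63).

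**Figure D5:**
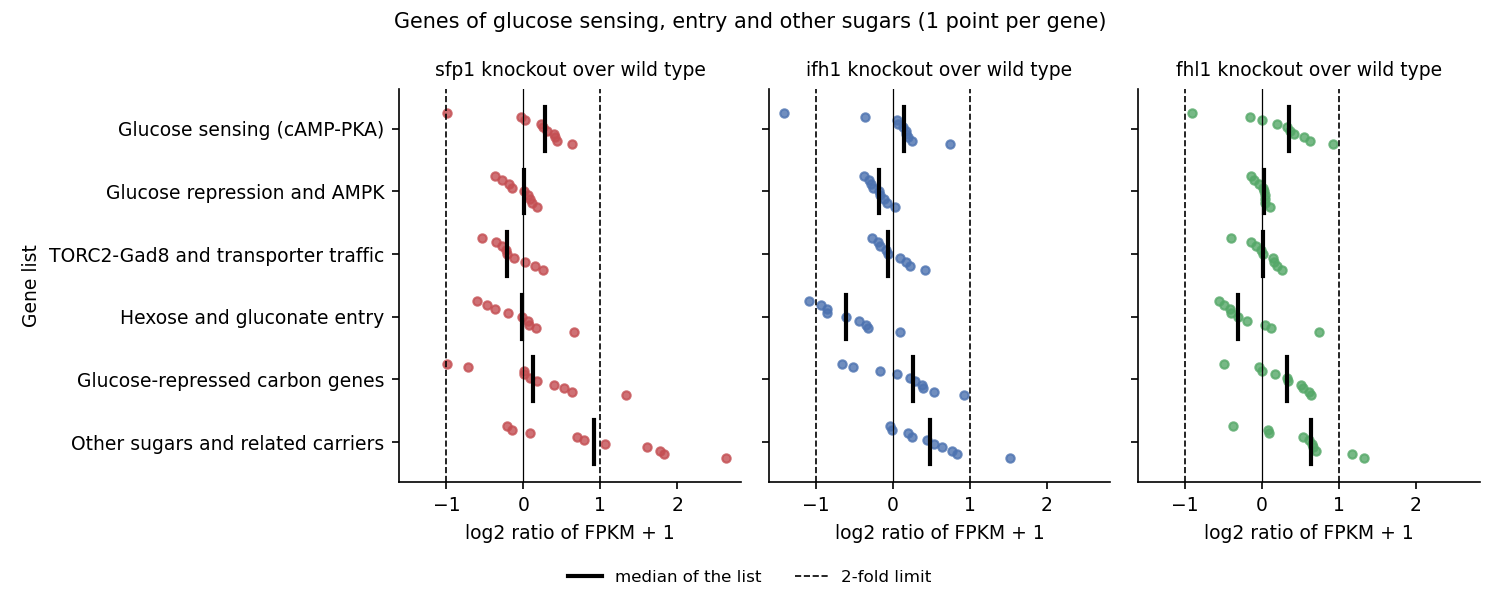
Log2 ratio of FPKM + 1 (horizontal axis) of each measured gene in 6 glucose-related lists in the 3 knockouts over wild type, with black bars for list medians and dashed lines at the 2-fold limit. The other sugars list lies farthest right, with a median of 0.92 in the sfp1 knockout, and the hexose entry list lies left in the ifh1 knockout, with a median of −0.61.

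The genes next to the members past the limit were read in the same way. The neighbours of ght3, SPAPJ695.01c and shu1, at distances of 5004 and 994 bases, were below 1 FPKM in all 4 genotypes. On either side of ght4 lay the maltase gene mal1 (16.6, 10.7 and 15.6 FPKM in the knockouts of sfp1, ifh1 and fhl1 and 9.23 in wild type) and frp1, a ferric reductase gene (13.4, 8.42 and 7.49 FPKM in the knockouts and 9.45 in wild type). Both were inside the limit in each knockout, with mal1 highest in the sfp1 knockout at 0.79. The gene dga1, next to ght5, had 132 FPKM in the ifh1 knockout against 103 in wild type (0.35). The other neighbour of ght5, SPCC1235.18, had 5.58 FPKM in the ifh1 knockout against 6.27 in wild type, and was listed at 0 in the sfp1 knockout, where its log2 ratio passed the limit and ght5 (−0.16) did not.

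Likeness to a member was measured as the Euclidean distance over the 3 log2 ratios to wild type among 4278 other genes of at least 300 bases and a mean of at least 10 FPKM. All 3 ratios share the wild-type sample, and 4 genotypes cannot show shared control. The minimum of 10 FPKM leaves out rare genes, and ght3 (mean 4.91 FPKM) and ght4 (8.66) are below it themselves. One gene left out is mel1, whose log2 ratios of 2.63, 1.52 and 1.33 lie closer to those of ght3 (2.44, 1.66 and 1.61) than any gene of the pool. In wild type mel1 rested on 5.5 fragments and ght3 on 6, so all 3 ratios of each gene share a weak wild-type value. The other rare genes left out were not compared with ght3. Nearest to ght3 within the pool were SPBPB2B2.01 (19.0, 11.0 and 12.6 FPKM in the knockouts of sfp1, ifh1 and fhl1 and 3.56 in wild type, distance 0.41), SPBPB2B2.05 (0.53) and nxt1 (0.73). The systematic names of the first 2 share their prefix with those of gal7, gal10 and gal1. Nearest to ght4 were SPAPB1A10.08 (0.07), the pyridoxal reductase gene plr1 (0.10) and SPBC16A3.17c (0.12). The pattern of ght5 had no gene closer than 0.47, and the 3 nearest were nep2 (0.47), sap14 (0.47) and SPAC26H5.09c (0.50). Nearest to ght8 were spo3 (0.03), sdc1 (0.04) and the cohesin gene rad21 (0.05). Of these 12 genes, 9 were also among the nearest 3 when midpoints of the bounds were used.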

How the data were processed

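RNA of 4 samples, 1 each from the sfp1, ifh1 and fhl1 knockouts and wild type, was analysed from 1 table. Per the file headers, the authors deposited FPKM per gene with bounds on either side. Its name mentions 2 replicates (how they entered 1 value: not given in the sources used here). TopHat2 2.0.9 and Cufflinks 2.1.1 are named in the submitters' processing notes. The crf1d columns were read as ifh1 knockout, since crf1 is a synonym of ifh1 in RefSeq. Each deleted gene stood in its own knockout at 0.0313 to 0.436% of its wild-type FPKM.

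From the table, log2 ratios of FPKM + 1 were computed with Python 3.11.15 and pandas 2.3.3 over 4758 genes whose mean reached 1 FPKM. The 3 deleted genes were left out, and 215 genes were listed at 0 in all genotypes. Read depth is not given. The bounds, read as whole fragments on 1 common scale, sum at their midpoints to 4520128, 4275064 and 4655950 fragments in the knockouts of sfp1, ifh1 and fhl1 and 5431592 in wild type, and the precision of each value is known only from its bounds. The FPKM columns were not rescaled (factors by the median of ratios were 0.989 to 1.02). The procedure was tested on simulated data, with changes set only in genes of at least 10 FPKM in wild type. That test does not cover the levels of ght1, ght3, ght4 and ght7. The members, lists and limits were chosen with earlier results of these data known.

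Sequences were read from RefSeq ASM294v3 for coding boundaries that matched the table, and aligned as proteins with Biopython 1.88. The build of the table: not given in the sources used here. Named were all members, list genes past the limit, the most abundant gene of each list, direct neighbours of members past the limit, and the 3 genes most like each such member and ght8. Alternatives covered the pseudocount, minimum, scaling, midpoints of the bounds, fold limit and bounds apart. Summing close copies was added after the data were seen.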

Additional observations from a re-analysis of the deposited data

How the results depend on the processing

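With 1 value per genotype, differences hold for these samples only, and rare members rest on few fragments. No paired analysis was possible because each genotype has 1 sample, and no sample could be left out for the same reason. Of 159 recomputed log2 ratios of single members, 154 kept their side of the 2-fold limit, 5 fell inside it and 0 reversed. This count says little about the calls themselves. A change of the minimum alters no ratio, and most of the ratios belong to members inside the limit from the start. The 5 that fell were of ght3, ght4 and ght5, the members with calls. Members past the limit numbered 2, 2 and 1 in the knockouts of sfp1, ifh1 and fhl1 and 3 between knockouts. They numbered 1 in the sfp1 knockout with quantile normalization, 1 in the ifh1 knockout with the sum outside ribosomal protein genes, and 1, 1 and 0 (1 between knockouts) with a pseudocount of 5. With a minimum of 10 FPKM, which drops ght1, ght3, ght4 and ght7, they numbered 0, 1 and 0. With bounds apart there was 1 in the sfp1 knockout, and at 1.5-fold there were 6 between knockouts. With close copies summed there were 1, 0 and 0 (1 between knockouts). The sum of ght5 and ght8 cannot pass the limit through ght5, and its lost calls say nothing of ght5. The sum of ght3 and ght4, mostly ght4 in wild type, likewise says nothing of the ght3 calls in the ifh1 and fhl1 knockouts. Between knockouts there were 2 with size factors by the median of ratios, with the sum outside ribosomal protein genes and with a minimum of 10 FPKM. Family sums moved to log2 ratios of 0.080 and 0.034 in the sfp1 and ifh1 knockouts with the sum outside ribosomal protein genes. Listed glucose genes past the limit numbered 6, 3 and 2 in the knockouts of sfp1, ifh1 and fhl1. They numbered 0 in the fhl1 knockout with quantile normalization, a pseudocount of 5 or bounds apart, and 5 in the ifh1 knockout with a pseudocount of 0.1 or the sum outside ribosomal protein genes. With bounds apart there was 1 in the ifh1 knockout, and at 1.5-fold there were 15, 13 and 12. Over 8 alternatives at the 2-fold limit other than bounds apart, all genes called higher and lower numbered 97 to 210 and 56 to 129 in the sfp1 knockout (148 and 118), 38 to 153 and 54 to 143 in the ifh1 knockout (76 and 134), and 77 to 147 and 28 to 50 in the fhl1 knockout (123 and 42). With bounds apart they numbered 49 and 64, 15 and 59, and 21 and 14 in the knockouts of sfp1, ifh1 and fhl1. The share of higher genes among those called was 78.9% against 55.6% in the sfp1 knockout, and 73.9% against 36.2% in the ifh1 knockout, with the sum outside ribosomal protein genes, and 51.5% with quantile normalization in the ifh1 knockout. With bounds apart it was 43.4, 20.3 and 60% in the knockouts of sfp1, ifh1 and fhl1, the last against 74.5%. The causes were not tested.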

Other observations

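The 1000 bases before each start codon were searched on both strands for short motifs of nutrient and stress regulators, beside all 5144 such windows of the assembly. The motif CCCCGC, a core of the Mig1 type of zinc finger to which the glucose repressor Scr1 belongs, lay before 4 of the 8 members (ght1, ght4, ght5 and ght8) and in 2.70% of all windows. CCCCAC, the other core searched, lay before ght3 and ght8 and in 8.11% of all windows. CCCCTC, the core of the stress element read by Rst2, lay before ght3 and ght5 and in 7.48% of windows. TGACGT, the core of the Atf1 and Pcr1 element, lay before ght2, ght3, ght4 and ght7 and in 14.8% of windows. Its match before ght4 lies inside the RefSeq transcript of ght4. CAGTCACA, the HomolD box of many ribosomal protein genes, lay before ght2 alone and in 3.69% of windows, and ACCCTACC, the core of HomolE, lay before none and in 2.31% of windows. No match was found before ght6. Stretches around CCCCGC are shown because 4 members carry it, with the motifs in capitals, 5′ to 3′ along each gene, from RefSeq (ASM294v3). They lie at III:228896-228940 (ght8, minus strand), III:211550-211575 (ght5, plus strand) and III:235253-235278 (ght1, minus strand), and the match before ght4 lies inside its RefSeq transcript and is not printed.
ght8: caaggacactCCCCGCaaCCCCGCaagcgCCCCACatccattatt
ght5: atacacttaaCCCCGCatccaaggta
ght1: tttgcagtatCCCCGCatttggttga

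Before ght8 the 3 matches began 530, 522 and 511 bases before the start codon, and the 45 bases shown include the flanks on either side. The matches began 753 bases before the start codon in ght5, 761 in ght1 and 970 in ght4. A match is a description of letters and no evidence of binding, and windows of this length can reach into a neighbouring gene. Among the 4 genes with CCCCGC, the log2 ratios of the knockouts of sfp1, ifh1 and fhl1 to wild type were −0.16, −1.17 and 0.39 in ght5, and −0.14, −0.32 and −0.18 in ght1. They were −0.15, −0.25 and 0.03 in ght8 and 1.13, −0.07 and 0.34 in ght4, beside −0.76, −0.35 and −0.36 in ght6, which has no match. The gene for Scr1 itself, scr1, had 56.2, 49.0 and 62.1 FPKM in the knockouts of sfp1, ifh1 and fhl1 and 64.0 in wild type, inside the 2-fold limit in each, and is named here outside the rule for named genes, after its values were seen.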
